A study of Homo sapiens with 23 samples.

Results

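The 10 genes examined here encode the enzymes of serine synthesis (PHGDH, PSAT1 and PSPH) and of the 1-carbon folate pathway in the cytosol (SHMT1 and MTHFD1) and in mitochondria (SHMT2, MTHFD2, MTHFD2L, MTHFD1L and ALDH1L2). They were taken as a list of named enzymes without a cutoff on a measured value, but with earlier results of these data known. All 10 were among the 16371 genes with enough counts to be tested. The RNA came from SCi-NCCITs, a line made from NCCIT, a human embryonal carcinoma line with features of pluripotent cells. SCi-NCCITs are a stable, drug-selected line that carries dCas9-KRAB under a doxycycline-inducible promoter together with sgRNAs, expressed at all times, that target SVA retrotransposons. 3 RNA-seq libraries came from SCi-NCCITs without doxycycline and 3 from SCi-NCCITs given 2 µg/mL doxycycline for 72 hours, so the untreated cells also carry the transgene and the sgRNAs. By the study's account the sgRNAs also match LTR5Hs elements. YY1 was profiled by ChIP-seq in 2 libraries per condition, H3K9me3 in 2 per condition plus 1 of NCCITs without dCas9-KRAB, and OCT4 in 1 per condition. No library came from doxycycline-treated cells lacking the sgRNAs or dCas9-KRAB, so the effects of the drug and of SVA repression cannot be told apart.

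Serine is made from the glycolytic intermediate 3-phosphoglycerate by PHGDH, PSAT1 and PSPH in turn. The serine hydroxymethyltransferases SHMT1 and SHMT2 then pass a carbon of serine to tetrahydrofolate and release glycine. In mitochondria MTHFD2 or MTHFD2L oxidizes this unit and MTHFD1L then releases it as formate, while ALDH1L2 oxidizes it to carbon dioxide. MTHFD1 carries out the corresponding steps in the cytosol, where the unit serves purine, thymidylate and methionine synthesis. Several of these genes are known targets of ATF4, the transcription factor of the amino acid and mitochondrial stress response, and MTHFD2 is known for its high level in embryonic and proliferating cells.

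The estimated counts on annotated genes were 14683468, 31905915 and 43443469 in the libraries without doxycycline and 44680610 to 47862394 in those with it. ZNF10, whose KRAB domain is the one usually fused to dCas9, lay at 10.02 to 11.8 CPM (counts scaled to 1000000 per library, TMM-normalized) without doxycycline and at 362 to 459 with it, in the direction of the labels. Of 9 markers of pluripotent cells 5 were lower with doxycycline and none higher, beside 8.48% of all genes tested called lower and 8.97% called higher, and their summed level was 1674 to 1856 TPM (counts per transcript length, scaled to 1000000 per library) without and 1285 to 1441 TPM with it. The genes called were NANOG, DNMT3B, TDGF1, SALL4 and L1TD1, while POU5F1, SOX2, LIN28A and DPPA4 were not called. The 3 ectoderm markers summed to 91.9 to 105 TPM without and 114 to 154 TPM with it, almost all of it NES, which was called higher. The 3 mesoderm and 4 endoderm markers summed to at most 2.84 and 1.34 TPM, with MIXL1 and GATA6 called higher. PAX6, SOX1, TBXT, EOMES, SOX17, GATA4 and AFP were under 1 TPM in every library. Of these, PAX6, EOMES and GATA4 were tested and not called, and the others had too few counts to be tested. The 4 fibroblast markers summed to 47.9 to 68.1 TPM over both conditions. The share of counts on the 13 mitochondrially encoded mRNAs was 3.54% to 4.38% without and 4.69% to 5.41% with doxycycline. The part of these shifts in the results for the enzymes was not tested.

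In cells without doxycycline the 10 enzymes differed widely in level. PHGDH, which catalyses the committed step of serine synthesis, was highest with 1040 ± 100.0 TPM (SD, n = 3 libraries), 3.02 times SHMT2 at 345 ± 20.0 TPM. MTHFD2 followed with 288 ± 14.9 TPM and PSAT1 with 261 ± 8.31 TPM. PSPH stood at 78.6 ± 2.39 TPM and MTHFD1L at 72.9 ± 4.10 TPM, SHMT1 at 36.2 ± 2.53 TPM and MTHFD1 at 19.8 ± 2.33 TPM. ALDH1L2 at 13.7 ± 1.71 TPM and MTHFD2L at 5.06 ± 0.914 TPM were lowest. PSPH and MTHFD1L overlapped in range and changed places between libraries, in either condition. The other neighbours in this order did not overlap and kept their order in 3 of 3 libraries of each condition. PHGDH alone held 47.2% to 50.1% of the summed TPM of the 10 genes in the 6 libraries, and that sum was 2051 to 2325 TPM without and 1825 to 1877 TPM with doxycycline.

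**Figure D1:**
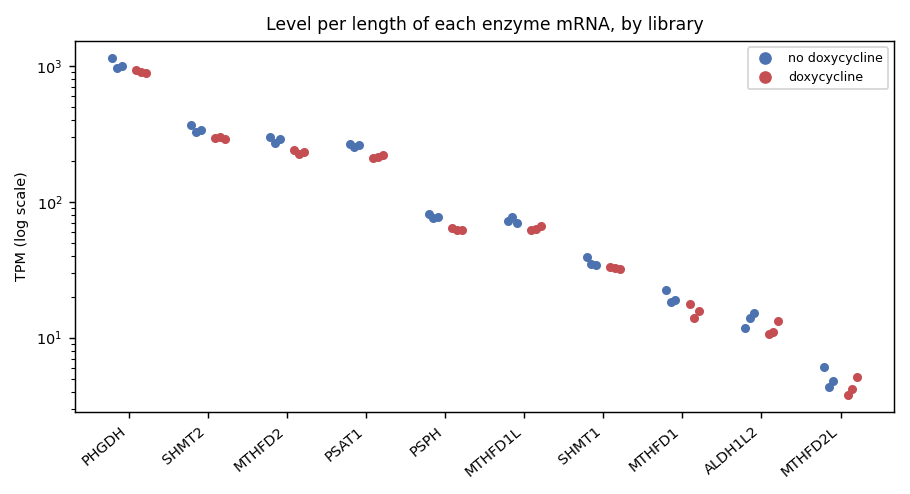
TPM of each enzyme mRNA (log axis) in the 3 libraries without doxycycline (blue) and the 3 with it (red), ordered by the mean without doxycycline. PHGDH lies near 1040 TPM and MTHFD2L near 5.06 TPM, and only PSPH and MTHFD1L overlap as neighbours.

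The question asked of the RNA was which of these mRNAs changed when dCas9-KRAB was induced. 4 of the 10 enzymes fell with doxycycline and none rose: PSAT1 and PSPH of serine synthesis, and MTHFD2 and MTHFD1L of the mitochondrial folate pathway, each by 15.3% to 20.1%. Among all 16371 genes tested, 17.5% were called in either direction and 8.48% were called lower (edgeR quasi-likelihood test, Benjamini-Hochberg adjusted p under 0.05). The fitted log2 fold change was negative for all 10 genes, from -0.33 to -0.008, with a median of -0.23 beside -0.0025 over all genes tested. 2 of 5 cytosolic and 2 of 5 mitochondrial members were called. In 6 of the 10 the CPM of the 3 treated libraries lay below those of the 3 untreated ones without overlap, beside 17.8% of all genes tested. No member changed by 0.5 or more on the log2 scale. The labels do not say whether the libraries came from separate cultures, so p-values measure only the spread between these libraries, which may be technical. In bulk RNA, fewer cells with a high level and less RNA per cell cannot be told apart.

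**Figure D2:**
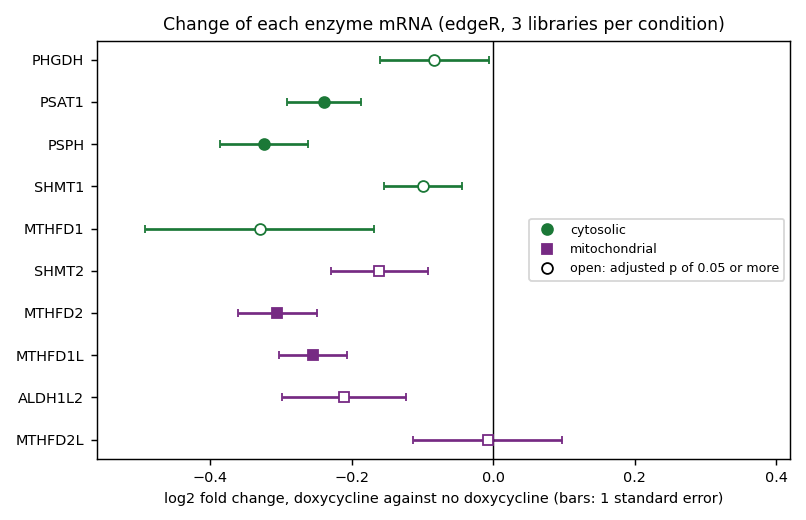
Log2 fold change of each enzyme mRNA with doxycycline against without, from edgeR on 3 libraries per condition, with bars of 1 standard error. Circles are cytosolic and squares mitochondrial enzymes, and filled symbols (PSAT1, PSPH, MTHFD2 and MTHFD1L) had an adjusted p under 0.05.

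PHGDH (ENSG00000092621, chr1:120191034-120286841 of hg19, plus strand) had 1199, 990 and 1055 CPM without doxycycline and 1062, 1042 and 958 CPM with it. The groups overlapped in CPM, and the log2 fold change was -0.08 ± 0.076 (SE, adjusted p = 0.491). In TPM, where the lengths of the assigned transcripts enter and no TMM scaling was applied, its libraries did not overlap, with 972 to 1155 without and 890 to 940 TPM with doxycycline.

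PSAT1 (ENSG00000135069, chr9:80912041-80945009, plus strand), the aminotransferase of the pathway, had 395, 364 and 386 CPM without doxycycline and 321, 324 and 324 CPM with it. Every treated library was below every untreated one. It fell by 15.3%, a log2 fold change of -0.24 ± 0.052 (adjusted p = 0.0137). Without replicate 3 of the untreated cells or without replicate 1 or 2 of the treated cells the adjusted p was 0.0519 to 0.0550, at a log2 fold change of -0.23 to -0.24.

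PSPH (ENSG00000146733, chr7:56078744-56119297, minus strand), the phosphatase that releases serine, had 64.1, 58.5 and 60.2 CPM without doxycycline and 51.5, 48.3 and 45.8 CPM with it. The groups did not overlap. PSPH fell by 20.1%, a log2 fold change of -0.32 ± 0.063 (adjusted p = 0.00822), the largest percent change among the 4 members called.

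**Figure D3:**
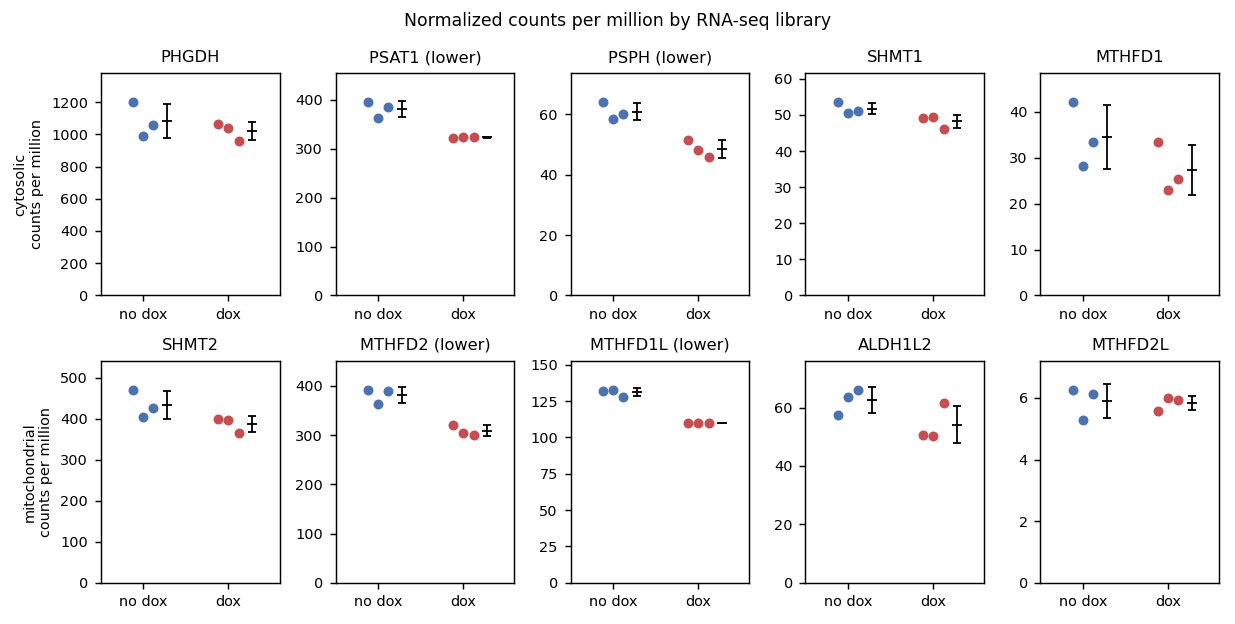
CPM of the 10 enzyme mRNAs in each library, cytosolic enzymes above and mitochondrial ones below, without doxycycline (blue) and with it (red). Points are libraries, bars the mean and 1 SD of 3 libraries, each axis starts at 0, and genes marked as lower are the 4 that passed the test.

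SHMT1 (ENSG00000176974, chr17:18231174-18266877, minus strand), the cytosolic hydroxymethyltransferase, had 53.5, 50.5 and 51.2 CPM without doxycycline and 49.2, 49.4 and 46.1 CPM with it. The groups did not overlap, but the difference of -0.10 ± 0.055 on the log2 scale did not pass the test (adjusted p = 0.246).

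MTHFD1 (ENSG00000100714, chr14:64854749-64930175, plus strand), the cytosolic trifunctional enzyme, had 42.1, 28.3 and 33.5 CPM without doxycycline and 33.4, 23.0 and 25.4 CPM with it. In CPM its libraries overlapped and had a larger SD relative to the mean than those of any other member, 20.1% without and 20.0% with doxycycline. In TPM they did not overlap, with 18.2 to 22.5 without and 13.9 to 17.8 with doxycycline. Its log2 fold change of -0.33 ± 0.162 did not pass the test (adjusted p = 0.194). It was the largest in size of the 10 over all libraries, and ranged from -0.18 without untreated replicate 1 to -0.51 without treated replicate 1. The 5 genes closest to MTHFD1 over the 6 libraries were PDZD4, IRF2BPL, FOS, PMAIP1 and CEBPB. Among 10003 genes averaging 10 CPM or more, these had the smallest root mean square difference of log2 CPM after centring each gene (0.068, 0.0681, 0.0735, 0.0776 and 0.086).

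SHMT2 (ENSG00000182199, chr12:57623356-57628718, plus strand), the mitochondrial hydroxymethyltransferase, had 471, 404 and 427 CPM without doxycycline and 400, 398 and 366 CPM with it. The highest treated library lay just below the lowest untreated one. The log2 fold change of -0.16 ± 0.068 did not pass the test on counts (adjusted p = 0.138), and did with limma on log2(TPM + 1), at -0.22 (adjusted p = 0.0284). The limma fit used TPM without TMM scaling, and its median over all its genes was -0.032, beside -0.0025 in the main fit.

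MTHFD2 (ENSG00000065911, chr2:74413299-74444692, plus strand), the mitochondrial dehydrogenase and cyclohydrolase, had 393, 362 and 389 CPM without doxycycline and 321, 304 and 301 CPM with it. All treated libraries were below all untreated ones. MTHFD2 fell by 19.0%, a log2 fold change of -0.31 ± 0.056 (adjusted p = 0.00640), and was called in all of the 14 alternative fits.

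Its paralogue MTHFD2L (ENSG00000163738, chr4:74979891-75168816, plus strand) had 6.27, 5.27 and 6.13 CPM without doxycycline and 5.58, 5.99 and 5.93 CPM with it. The libraries overlapped, and the log2 fold change of -0.008 ± 0.105 (adjusted p = 0.986) changed sign when single libraries were left out.

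MTHFD1L (ENSG00000120254, chr6:151186815-151423023, plus strand), which makes formate in mitochondria, had 132, 133 and 128 CPM without doxycycline and 110, 110 and 110 CPM with it. The treated libraries had an SD of 0.128% of their mean and lay below all untreated ones. MTHFD1L fell by 16.2%, a log2 fold change of -0.26 ± 0.048 (adjusted p = 0.00753). When the length of the assigned transcripts was taken into account the call was lost, with -0.15 in length-scaled counts (adjusted p = 0.147) and -0.19 with limma on log2(TPM + 1) (adjusted p = 0.0759). Over the same libraries the share of its counts on ENST00000367307, a coding transcript of 1049 nt, was 11.5% ± 1.23 without and 14.8% ± 0.68 with doxycycline. The share on ENST00000611279, of 3475 nt, was 69.4% ± 2.37 without and 66.2% ± 1.89 with it.

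ALDH1L2 (ENSG00000136010, chr12:105413562-105501421, minus strand), the mitochondrial formyltetrahydrofolate dehydrogenase, had 57.5, 63.7 and 66.2 CPM without doxycycline and 50.7, 50.3 and 61.6 CPM with it. Treated replicate 3 reached into the untreated range, and the log2 fold change of -0.21 ± 0.088 did not pass the test (adjusted p = 0.134). Without that library it was -0.31 (adjusted p = 0.0231), and over protein-coding transcripts only it was -0.36 (adjusted p = 0.0300).

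The files give values per transcript, so the sums above mix transcripts of different kinds. Transcripts annotated as protein coding held all counts of PSAT1, 98.6% to 99.2% of those of MTHFD1L, 93.1% to 96.6% of SHMT1 and 89.9% to 91.4% of SHMT2. The share was 70.3% to 76.2% in PSPH, 59.0% to 63.5% in MTHFD2, 52.7% to 62.6% in ALDH1L2 and 51.7% to 57.9% in PHGDH. In MTHFD1 it ran from 50.6% to 73.5% and in MTHFD2L from 7.75% to 20.1%. In MTHFD2 a transcript annotated as a target of nonsense-mediated decay, ENST00000470592, took 34.0% ± 0.466 of the counts without and 35.7% ± 1.84 with doxycycline. In ALDH1L2 a retained-intron transcript, ENST00000549335, took 35.2% ± 2.94 without and 41.4% ± 0.142 with it. The coding share of ALDH1L2 was 60.2% ± 3.36 without and 54.1% ± 1.29 with doxycycline, and that of PHGDH 53.1% ± 1.20 and 56.3% ± 1.51, in both without overlap of the libraries. These shares are estimates of how shared reads were divided, and they were not tested or set beside those of all genes. The annotation lists 14 pseudogenes named after the members, which can share reads with them. 13 of these had under 2 counts in every library, and the other, MTHFD2P1, had at most 13.8.

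Whether the mitochondrial enzymes changed more than the cytosolic ones was asked with ratios of TPM within each library. The summed TPM of the 5 mitochondrial enzymes was 12.3, 13.1 and 13.5 times that of SHMT1 and MTHFD1 without doxycycline and 12.0, 13.1 and 12.8 times with it. These values overlapped, and their means differed by -0.04 on the log2 scale, beside an SD between libraries of 0.0657 without and 0.0667 with doxycycline. Against all 5 cytosolic members the ratio was 0.506 ± 0.0182 without and 0.492 ± 0.00875 with doxycycline. A sum weights its members by level, so SHMT2 and MTHFD2 (345 and 288 TPM without doxycycline) weigh most in the mitochondrial sum. PHGDH (1040 TPM) weighs most in the sum of all 5 cytosolic members. The ratios therefore say little about the less abundant enzymes.

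The 4 pairs of single genes gave no ratio that passed an exact two-sided permutation test, whose smallest possible p for 3 against 3 libraries is 0.10. SHMT2 stood at 9.41, 9.41 and 9.81 times SHMT1 without and 8.84, 9.30 and 9.06 times with doxycycline. The groups of this pair did not overlap, with a difference of -0.07 on the log2 scale, p = 0.10 by the exact test and 0.40 after adjustment over the 4 pairs. MTHFD1L stood at 3.72 ± 0.534 times MTHFD1 without and 4.10 ± 0.547 times with doxycycline (exact p = 0.50, adjusted 0.90). MTHFD2 stood at 57.9 ± 7.19 times MTHFD2L without and 54.2 ± 8.95 times with it (exact p = 0.70, adjusted 0.90). Over coding transcripts only, the log2 difference of this ratio was -0.47 in place of -0.10. Whether MTHFD2, which was called, and MTHFD2L, which was not, differ in response is not settled by a test of this size. ALDH1L2 stood at 15.3 ± 5.73 times its cytosolic paralogue ALDH1L1 without and 14.6 ± 5.40 times with doxycycline (exact p = 0.90, adjusted 0.90). ALDH1L1 averaged only 0.96 TPM without and 0.841 TPM with doxycycline, so this ratio rests on a gene near the floor.

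**Figure D4:**
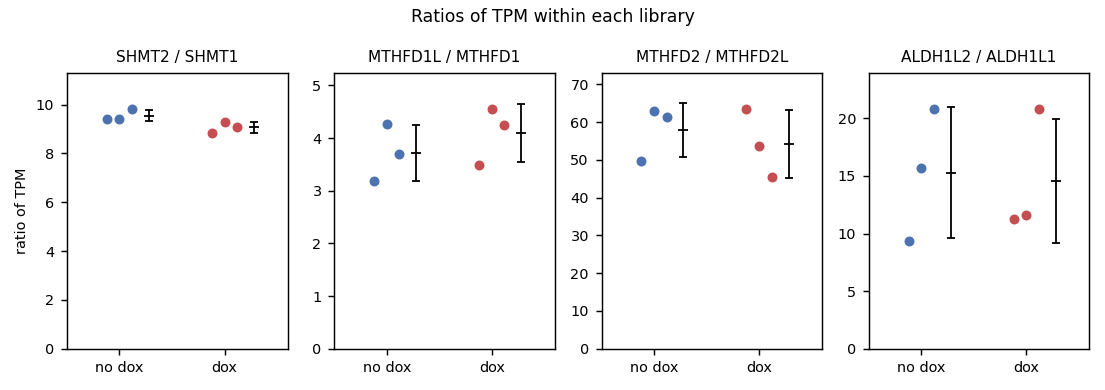
Ratio of TPM within each library for the 4 pairs of enzymes, without doxycycline (blue) and with it (red). Points are libraries and bars the mean and 1 SD of 3 libraries. Only SHMT2 over SHMT1 does not overlap between conditions, at 9.41 to 9.81 against 8.84 to 9.30.

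In the neighbouring pathways the counts of genes called were small, and they are read beside the 8.48% of all genes tested that were lower and the 8.97% that were higher. Of 5 glycolytic genes around 3-phosphoglycerate 1 fell and 1 rose, with a median log2 fold change of 0.02 over the list. ENO1, the enolase downstream of 3-phosphoglycerate, fell from 7172 to 3033 CPM on average, a log2 fold change of -1.24 ± 0.063 (adjusted p = 3.46e-06). PKM, pyruvate kinase, rose from 1237 to 1842 CPM, by 0.57 ± 0.0497 (adjusted p = 0.000106).

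Of 12 genes of the folate cycle and its carriers 2 rose and the others did not pass the test (median log2 fold change 0.01), a share close to the 17.5% of all genes tested called in either direction. SFXN1, the mitochondrial serine transporter, rose from 88.7 to 110 CPM (0.30 ± 0.057, adjusted p = 0.00672), and GGH, which trims the glutamate tail of folates, rose from 21.3 to 27.7 CPM (0.37 ± 0.081, adjusted p = 0.0139). In the glycine cleavage system 1 of 4 genes fell and 1 rose. GLDC, its decarboxylase, fell from 98.5 to 72.5 CPM (-0.44 ± 0.060, adjusted p = 0.00136) and AMT, its aminomethyltransferase, rose from 42.2 to 49.6 CPM (0.24 ± 0.068, adjusted p = 0.0401).

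Among users of serine and 1-carbon units, 1 of 6 genes of de novo purine synthesis fell and none rose. This was PFAS, from 159 to 125 CPM (-0.35 ± 0.063, adjusted p = 0.00580). Of 5 genes of the methionine cycle and transsulfuration 1 fell, CBS, which joins serine to homocysteine, from 316 to 238 CPM (-0.41 ± 0.075, adjusted p = 0.00666). Of 5 transporters of serine and glycine 2 fell and 1 rose. The glycine transporter SLC6A9 fell from 19.9 to 13.8 CPM (-0.53 ± 0.093, adjusted p = 0.00554) and the amino acid transporter SLC38A2 fell from 341 to 276 CPM (-0.31 ± 0.067, adjusted p = 0.0137). SLC38A1 rose from 7.79 to 9.95 CPM (0.35 ± 0.0995, adjusted p = 0.0406).

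Of ATF4 and 12 other genes of its amino acid response, 5 fell and none rose, and the list's median log2 fold change was -0.19. ASNS, asparagine synthetase, fell from 292 to 208 CPM (-0.49 ± 0.055, adjusted p = 0.000491). The cystine transporter SLC7A11 fell from 245 to 146 CPM (-0.75 ± 0.098, adjusted p = 0.00115), and CHAC1, which degrades glutathione, from 62.2 to 36.7 CPM (-0.75 ± 0.169, adjusted p = 0.0161). ATF4 mRNA itself stood at 526 and 520 CPM (-0.02 ± 0.062, adjusted p = 0.872). ATF4 is controlled largely at translation, so its mRNA level does not measure its activity. The background for these 5 of 13 is the same 8.48% of all genes tested that were lower.

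The ChIP-seq peaks were compared with the starts of the members. A start was that of any transcript with at least 10% of a gene's TPM, and a peak was counted within 1000 bp of it. YY1, a zinc finger factor that often binds near promoters, had a peak in both untreated libraries at 8 of 10 members, beside 60.7% of all genes tested, and in both treated libraries at 9 of 10, beside 68.6%. SHMT1 had a peak in 1 of the 4 libraries, treated replicate 1, of 3.74-fold enrichment, and MTHFD1 lacked one in untreated replicate 2. The strongest YY1 peaks lay at MTHFD2L, with 34.6- and 32.8-fold enrichment without and 36.3- and 42.2-fold with doxycycline, and at PSPH, with 27.8- and 17.6-fold without and 28.1- and 19.0-fold with it. At MTHFD1L they were 18.5- and 11.01-fold without and 19.0- and 11.2-fold with doxycycline, and at MTHFD2 13.6- and 8.62-fold without and 11.5- and 12.1-fold with it. Of the 8 members with a YY1 peak in all 4 libraries, both treated values were above both untreated ones at MTHFD2L, PHGDH (11.30- and 8.66-fold without, 14.4- and 11.34-fold with doxycycline) and PSAT1 (7.81- and 7.31-fold without, 9.87- and 8.31-fold with it). The values with and without doxycycline overlapped at PSPH, MTHFD1L, MTHFD2 and ALDH1L2. At SHMT2 the values (5.27- and 4.21-fold without, 2.80- and 3.81-fold with doxycycline) came from peaks at different positions. The untreated peaks lay at chr12:57624402-57624731 and chr12:57623741-57623970, the treated ones at chr12:57623236-57623695 and chr12:57623283-57623615. These values therefore do not compare a single site between conditions. The untreated YY1 lists hold 56370 and 76098 peaks and the treated ones 82005 and 115673. No test was run on these values, and a permutation test of 2 libraries against 2 cannot reach a p under 0.05. How often the peaks of all genes tested separated between conditions in the same way was not counted. MTHFD2L, with the highest YY1 peaks of the members, had a log2 fold change in RNA of -0.008.

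OCT4, the pluripotency factor, had a peak in its 1 untreated library at 5 members, PSAT1, PSPH, MTHFD2, MTHFD1L and SHMT1, beside 42.8% of all genes tested. In its 1 treated library it had a peak at 1 member, PSAT1 (4.95-fold), beside 5.90%. The treated list holds 23352 peaks and the untreated one 50775, the libraries have no replicates, and 1 of the 5 untreated peaks, that of PSAT1 (5.82-fold), had a −log10 q of at least 5. H3K9me3, the repressive mark laid down where KRAB is recruited, had no peak at any of the 10 members in any of the 5 libraries. Of all genes tested, 3.97% had a peak in NCCITs without dCas9-KRAB. The shares were 7.65% and 5.53% in the untreated and 6.24% and 5.92% in the treated SCi-NCCIT libraries. In both libraries of a condition they were 4.58% untreated and 4.04% treated. At shares this low, the lack of a peak at 10 genes says little about the members. The lists give no read depth, so a peak that was not called may be below what a library could show. Of 751 SVAs listed by the study as lacking this mark in pluripotent cells, none lay within 50 kb of a member's start, beside 3.78% of all genes tested that had one. The start used here was that of the gene's transcript with the highest mean TPM, coding or not. The closest was 64.5 kb from SHMT1 and the next 506 kb from MTHFD1, beside a median of 1449 kb over all genes tested. Distances to other annotated SVAs and to LTR5Hs elements, which the sgRNAs can also match, were not measured.

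Promoter sequences are shown for the 4 members with a stretch of at least 237 bases before a RefSeq start that overlaps no annotated exon. These are PSAT1 and MTHFD1L, which fell, and SHMT1 and MTHFD2L, which were not called. Of 2 such stretches of 250 bases in MTHFD1L the one nearer the start of the gene is shown. Each runs 5′ to 3′ on the strand of its gene. Capitals mark the CCAAT box, a common element before start sites, on either strand. They are RefSeq promoter sequences placed on hg19 by exact match.
PSAT1, chr9:80911791-80912040, plus strand, 250 to 1 bases before the start: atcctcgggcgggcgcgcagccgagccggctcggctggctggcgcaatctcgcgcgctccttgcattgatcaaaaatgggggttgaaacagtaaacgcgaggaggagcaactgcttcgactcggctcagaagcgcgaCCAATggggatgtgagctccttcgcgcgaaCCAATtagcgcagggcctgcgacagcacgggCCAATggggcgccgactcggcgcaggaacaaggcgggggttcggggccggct
MTHFD1L, chr6:151187219-151187468, plus strand, 250 to 1 bases before a start inside the gene: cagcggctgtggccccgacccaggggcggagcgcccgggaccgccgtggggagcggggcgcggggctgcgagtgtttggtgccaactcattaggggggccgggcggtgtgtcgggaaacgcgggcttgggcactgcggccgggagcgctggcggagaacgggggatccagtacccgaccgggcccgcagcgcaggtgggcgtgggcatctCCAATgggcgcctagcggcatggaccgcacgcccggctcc
SHMT1, chr17:18266878-18267114, minus strand, 250 to 14 bases before the start: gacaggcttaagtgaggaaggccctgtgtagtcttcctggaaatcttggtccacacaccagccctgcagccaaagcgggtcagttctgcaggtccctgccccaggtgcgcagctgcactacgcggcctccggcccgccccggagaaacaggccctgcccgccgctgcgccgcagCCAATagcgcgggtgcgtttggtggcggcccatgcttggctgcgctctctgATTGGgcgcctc
MTHFD2L, chr4:74988740-74988989, plus strand, 250 to 1 bases before a start inside the gene: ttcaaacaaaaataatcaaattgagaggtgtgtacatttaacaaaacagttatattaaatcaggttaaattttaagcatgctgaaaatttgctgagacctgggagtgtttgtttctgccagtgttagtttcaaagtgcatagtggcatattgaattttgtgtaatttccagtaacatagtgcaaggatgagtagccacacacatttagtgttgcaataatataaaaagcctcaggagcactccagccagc

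PSAT1 has 3 CCAAT boxes, which begin 113, 83 and 52 bases before its start. The summits of its YY1 peaks lay 139 and 131 bases before the start in untreated and 167 and 159 bases before it in treated cells. SHMT1 has 1 on its own strand, beginning 76 bases before the start, and 1 on the other strand at 25 bases before it. The MTHFD1L stretch has 1, at 40 bases before its start, and the MTHFD2L stretch has none. No peak of any library lay over the MTHFD2L window, and the YY1 peaks of this gene had their summits 25 to 32 bases after another start, at chr4:75023835.

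Windows from 250 bases before to 50 after the start were given for 7 of the 10 members and not for PSPH, SHMT2 and ALDH1L2. Over both strands CCAAT was found at 6 of the 7 (PHGDH, PSAT1, SHMT1, MTHFD1, MTHFD2 and MTHFD1L), beside 34.6% of 35116 promoter windows. TGATGNAA, the core of the element bound by C/EBP and ATF factors such as ATF4, was found only at MTHFD1L, beside 3.62% of windows. The E-box CACGTG was found at MTHFD1 and MTHFD1L (7.26% of windows), GGGCGG, bound by SP1 and KLF factors, at PSAT1, SHMT1, MTHFD1L and MTHFD2L (45.0%), and AANATGGC, the YY1 motif, at none (6.58%). The MTHFD1L count covers several windows of this gene, which gives it more chances of a match. A match is only a description of the letters.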

How the data were processed

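RNA-seq and ChIP-seq of SCi-NCCITs were analysed from the files the authors deposited. For RNA (poly(A), strand-specific, paired-end) the authors trimmed reads, ran kallisto, and deposited 2 values for each transcript, an estimated count and a TPM, which had not been normalized between libraries. kallisto divides reads among transcripts by a model, so shares of similar transcripts are uncertain. For ChIP-seq the authors aligned reads to hg19 with BWA MEM, dropped duplicates and reads at or under a mapping quality of 10, and called peaks in each library (FDR of 5%). The deposited lists hold each peak's fold enrichment as a ratio and its q-value as −log10.

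Of 188753 transcripts, 166506 matched GENCODE v44lift37, with 95.8% to 96.0% of the counts. The counts without a gene, 4.04% to 4.15%, were left out. Estimated counts were added up over the transcripts of each gene and rounded to whole numbers. The quasi-likelihood test of edgeR 4.0.16 (R 4.3.3) followed filterByExpr and TMM scaling, with Benjamini-Hochberg adjustment over all 16371 genes and a threshold of 0.05. The study names DESeq2, which was an alternative (version 1.42.0), with limma 3.58.1. Levels of different genes were compared as TPM. Pairs of genes were compared by exact permutation tests in Python 3.11.15 with scipy 1.17.1, pandas 2.3.3 and numpy 2.4.6, and plotted with matplotlib 3.10.9. The fit was tested on simulated counts. Between libraries of a condition, counts differed by 7.30 to 14.6 times counting variance.

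The 10 members, the pathway lists and the markers were chosen with earlier results of these data known. Named from a pathway list were at most the 3 genes with the lowest adjusted p among those called. For the member with the largest log2 fold change in size, the 5 genes nearest in pattern were named, and ZNF10 as a check. The alternatives were DESeq2, its size factors, other filters, a replicate block, length-scaled counts, coding transcripts only, limma on log2(TPM + 1) for genes with a mean of at least 1 TPM, a minimum log2 fold change of 0.5, leaving out each library, other windows and a stricter q-value for peaks, and for ratios a pseudocount of 1. The labels do not state a pairing, and same-numbered libraries of the conditions deviated together only weakly (correlations 0.128, 0.0799 and -0.000942). Libraries with different numbers gave -0.127 to 0.0598, below the values of replicates 1 and 2. The numbers were not taken as pairs in the main fit, and the replicate block is the alternative that does so. A table of YY1 HiChIP contacts was not used. It has 16 columns of per-sample values and ChIP coverage whose conditions are not given by their names. 1 other gene of the folate cycle list is not reported here, and the counts of that list leave it out.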

Additional observations from a re-analysis of the deposited data

How the results depend on the processing

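MTHFD2 and PSPH were called lower in every one of the 14 alternative fits, PSAT1 in 11 and MTHFD1L in 12. The number of members called was 4 with DESeq2, RLE size factors and either filter, 3 to 5 when single libraries were left out, 3 with length-scaled counts, 5 over coding transcripts and 0 when a log2 fold change of 0.5 in size was also required. The genes called were 2858 of 16371 in the main fit, 1901 of 16382 with length-scaled counts and 2363 of 14612 over coding transcripts. Of these, 1389, 962 and 1143 were lower. With DESeq2, RLE size factors and either filter 2854 to 3006 genes were called, and with limma on log2(TPM + 1) 1672 of 13652. With the minimum fold change 976 genes were called, and 1396 to 3259 when 1 library was left out. With the replicate number as a block 3316 genes and 6 members were called, MTHFD1 (-0.34, adjusted p = 0.00542) and ALDH1L2 (-0.21, adjusted p = 0.0419) in addition. PHGDH turned to 0.01 over coding transcripts. MTHFD2L ranged from -0.09 to 0.03 when single libraries were left out. The log2 difference in the ratio of ALDH1L2 to ALDH1L1 was -0.05 and ranged from -0.37 to 0.21 when single libraries were left out, and that of MTHFD2 to MTHFD2L was -0.10 and ranged from -0.22 to 0.02. Over coding transcripts these 2 were -0.23 and -0.47, and that of MTHFD1L to MTHFD1 was 0.29 in place of 0.14. The ratio of mitochondrial to all cytosolic members differed by -0.04, by -0.11 over coding transcripts and by -0.07 to -0.02 when single libraries were left out. Within 5000 bp, H3K9me3 peaks lay at 2 members in NCCITs (18.5% of all genes), at 1 in both untreated libraries (19.3%) and at 0 in both treated ones (17.1%), of which single libraries had 1 and 2, and the treated OCT4 library had 3 (14.1%). At a −log10 q of at least 5 the untreated OCT4 library had 1. The causes were not tested. A p that misses the threshold does not show that SHMT1, SHMT2 or PHGDH did not change.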
